A study of Mus musculus with 3 samples.

Results

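Collagens are the main fibrous proteins of the extracellular matrix. Each molecule is a triple helix of 3 chains, and each kind of chain is coded by its own gene. Some collagens, such as type III, are built of copies of the same chain. Those built of different chains need supplies of each partner chain. Fibrillar collagens form the cross-striated fibrils of connective tissue, type IV collagen forms the sheet of the basement membrane that wraps each muscle fibre, and FACIT collagens (fibril-associated collagens with interrupted triple helices) decorate fibrils. Chains are hydroxylated and folded in the endoplasmic reticulum with dedicated enzymes and chaperones, trimmed after secretion and cross-linked outside the cell. In skeletal muscle, collagens come from fibroblasts and also from the muscle cells themselves.

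The collagen genes described here are the rows of the count table whose symbol has the form of a collagen chain (Col, a number, a, a number) and that held at least 10 reads over the 3 libraries. There were 30 of them, out of 36 collagen rows and 20162 genes in all. They comprised 10 fibrillar chains, 3 type IV chains, 4 FACIT chains and 13 others. The 6 rows under the minimum were Col22a1 (9 reads), Col4a3 (9), Col9a3 (4), Col4a6 (1), and Col2a1 and Col4a4 (0 each).

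Polyadenylated RNA was sequenced from C2C12, a line of mouse myoblasts that form multinucleated myotubes once serum is lowered. There were 3 libraries: Tead4 shRNA A, Tead4 shRNA B and a control shRNA, 1 library each. All 3 populations carried a lentivirus, were kept in puromycin and were differentiated for 7 days in 2% horse serum, and the infected cells were used as selected populations. The design asks which transcripts change when the transcription factor Tead4 is reduced with either of 2 hairpins, which here stand as the replicates of the knockdown.

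Depth was 15594305 to 19918954 reads per library. Tead4 was at 19.7 and 10.8 CPM (counts scaled to a common library size) with shRNAs A and B, against 78.2 CPM in the control library, and fell by 2.35 on the log2 scale (SE 0.27, adjusted p = 2.82e-06, by the edgeR test described next). Levels are given as CPM after TMM scaling of library sizes (a trimmed mean of log ratios between libraries), and ratios of 1 library to the control library carry 95% exact counting intervals, which cover counting error only. Tests over both hairpins are edgeR quasi-likelihood tests with Benjamini-Hochberg adjustment over all 14478 genes tested. Their spread comes from 2 libraries with different hairpins, and the lone control library is assumed to vary like them. With 1 residual degree of freedom, the spread of a gene is drawn mostly from all genes at similar levels (prior degrees of freedom 20.9). A p-value therefore measures mainly this pooled spread between these libraries, and little of the gene's own. No label says that repeat cultures were made, so it does not measure a spread between cultures. In bulk RNA, fewer cells of a type and less RNA per cell cannot be told apart.

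The motif of TEAD factors was looked for in the collagen promoters. RefSeq windows (GRCm38.p6, 250 bases before to 50 after a start) were matched for 26 of the 30 genes, in 28 windows. No window was matched for Col12a1, Col14a1, Col1a1 and Col5a2. The motif CATTCC, searched on both strands, was in 3 of the 28 windows, against 14.7% of all 32851 windows. The 3 windows belong to Col3a1, Col18a1 and Col6a2, and their sites are shown because Tead4 is the gene that was targeted; capitals mark the motif or its reverse complement.
Col3a1, 250 bases before the start, chr1:45311288-45311537, plus strand: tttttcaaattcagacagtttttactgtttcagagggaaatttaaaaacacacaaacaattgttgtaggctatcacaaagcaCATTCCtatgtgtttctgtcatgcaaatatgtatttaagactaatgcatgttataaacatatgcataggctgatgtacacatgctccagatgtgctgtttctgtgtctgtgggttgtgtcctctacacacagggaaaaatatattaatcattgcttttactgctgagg
Col18a1, 30 bases at the downstream start, chr10:77113792-77113821, minus strand: tcaggctgggttCATTCCcttctgccagag
Col18a1, 30 bases at the same start, chr10:77113742-77113771, minus strand: gactgggaaccaGGAATGagggagggtggg
Col6a2, 30 bases, chr10:76623502-76623531, minus strand: cctcccccagctCATTCCccagcttcatct
The motif began 168 bases before the start in Col3a1, 104 and 54 before it in Col18a1, and 115 before it in Col6a2. Of the 250 bases before these starts, 241 in Col18a1 and 226 in Col6a2 lie in annotated exons of the same gene. Those of Col3a1 overlap no annotated exon. Col18a1 and Col6a2 each have another window, at an upstream start, that holds no CATTCC. A match is a description of the sequence and not a binding site. Of these genes, Col18a1 passed the test over both hairpins, and Col3a1 and Col6a2 did not.

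Col4a1 and Col4a2, which code for the main chains of type IV collagen, are neighbours on chromosome 8 and are read away from each other. Their RefSeq starts overlap by 22 bases, shown here on the plus strand, the sense strand of Col4a2.
Col4a2 and Col4a1 starts, chr8:11312805-11312826: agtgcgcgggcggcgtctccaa
Col25a1, a transmembrane collagen that developing mouse muscle needs for the entry of motor axons, was the member that fell. Its window holds no CATTCC, and its CCAAT motif, in capitals, begins 191 bases before the start. CCAAT, searched on both strands, was in 11 of the 28 collagen windows and in 37.4% of all windows.
Col25a1, 250 bases before the start, chr3:130180595-130180844, plus strand: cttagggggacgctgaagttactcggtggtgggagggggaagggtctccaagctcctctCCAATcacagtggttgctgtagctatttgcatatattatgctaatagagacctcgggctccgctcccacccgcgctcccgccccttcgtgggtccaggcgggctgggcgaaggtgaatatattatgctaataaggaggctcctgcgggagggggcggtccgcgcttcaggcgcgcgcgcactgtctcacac

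Collagen transcripts took more of the RNA with shRNA A than in the other two libraries. The 30 genes held 156189 reads with shRNA A, 73574 with shRNA B and 69768 in the control library, or 0.784%, 0.472% and 0.425% of all reads. Their summed CPM was 1.79 times that of the control library for shRNA A (95% interval 1.77 to 1.80) and 1.07 times for shRNA B (1.06 to 1.09). The summed level with shRNA B was 0.601 times that with shRNA A (0.596 to 0.607). Tead4 itself was lower with shRNA B than with shRNA A.

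Over both hairpins, 4 collagen genes rose, 1 fell and 22 of the 27 tested did not pass. Those that rose were Col4a1, Col4a2, Col16a1 and Col18a1, and Col25a1 fell. The 4 make 14.8% of the 27, against 5.34% of all tested genes called higher, and the 1 makes 3.70%, against 4.48% called lower. The median log2 fold change of the 27 was 0.57, against 0.02 for all tested genes. Col15a1, Col17a1 and Col28a1, with 17 or 18 reads each over the 3 libraries, did not pass the filter on low counts. A low member can pass that filter through the libraries in which it is high, so this median describes the 27 and supports nothing further.

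Set against the control library alone, 18 of the 30 genes were higher with shRNA A by their counting interval (60.0%, against 31.2% of the 15500 genes with at least 10 reads) and 5 were lower (16.7%, against 30.8%). With shRNA B, 13 were higher (43.3%, against 28.0%) and 7 lower (23.3%, against 26.6%). Levels at least 2-fold higher, with an interval excluding no change, were seen for 9 genes with shRNA A (30.0%, against 8.57%) and for 2 with shRNA B (6.67%, against 6.29%). By the same rule, levels at least 2-fold lower were seen for 1 gene with shRNA A (3.33%, against 5.88%) and 2 with shRNA B (6.67%, against 4.83%). Both comparisons share the control library and have no replicate check. The median log2 ratio of the 30 genes was 0.83 for shRNA A and 0.15 for shRNA B; for the 15500 genes it was 0.0069 and 0.0224.

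**Figure D1:**
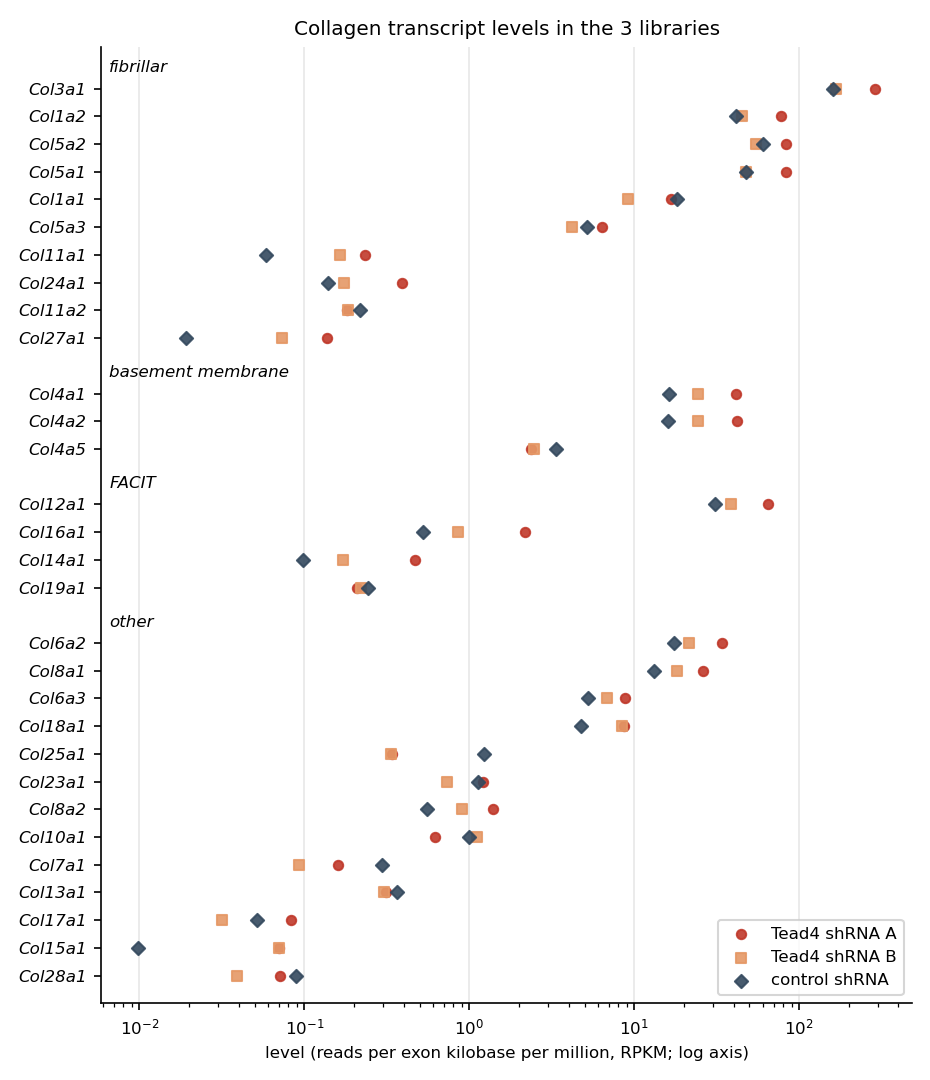
Level of each of the 30 collagen genes in the 3 libraries, in RPKM on a log axis, grouped by class. Points are single libraries; Col3a1 lies furthest right, at 289 with shRNA A, 168 with shRNA B and 161 in the control library.

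Per exon length, Col3a1, the only chain of type III collagen, was the most abundant collagen transcript. It stood at 289 RPKM (CPM divided by exon length in kilobases) with shRNA A, 168 with shRNA B and 161 in the control library. Next were the type V chains Col5a2 (83.1, 55.0 and 60.5 RPKM in the same order) and Col5a1 (83.8, 47.4 and 47.6 RPKM), which set fibril diameter, and the type I chain Col1a2 (77.5, 45.0 and 41.2 RPKM). The FACIT chain Col12a1 followed at 65.1, 38.6 and 31.0 RPKM. Col5a1 and Col5a2 were nearly level with shRNA A and Col5a2 was the higher in the other two libraries, while Col1a2 stayed under both. This order depends on the length used, which joins all annotated exons (12.4 kb for Col1a2, 8.49 for Col5a1 and 9.59 for Col5a2). By CPM, Col1a2 was above Col5a1 in every library. It was above Col5a2 with both hairpins and below it in the control library. Each of the remaining members was under 42 RPKM in every library, and 11 were under 0.5 RPKM in every library.

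The abundant fibrillar chains were high with shRNA A and near the control level with shRNA B. Of the 10 fibrillar genes, 0 passed the test over both hairpins, against 5.34% of all tested genes called higher and 4.48% called lower. A class of 10 genes is too small to read this count as a trait. Col3a1 was at 2837 CPM with shRNA A and 1645 CPM with shRNA B, against 1581 CPM in the control library. The shRNA A library stood apart and the other two nearly coincided. Against the control library, its log2 ratio came to 0.84 (0.82 to 0.86) for shRNA A and 0.06 (0.03 to 0.08) for shRNA B, and the log2 fold change over both was 0.50 (SE 0.29, adjusted p = 0.336).

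Col1a2 had 963 and 559 CPM with shRNAs A and B, against 512 CPM in the control library, and Col5a1 had 711 and 403 CPM, against 404 CPM. In both, the shRNA A library was the high one. The log2 ratios were 0.91 and 0.13 for Col1a2, and 0.82 and -0.01 (-0.06 to 0.04) for Col5a1, whose levels with shRNA B and in the control library did not differ beyond counting error. Col5a2 was at 797 and 527 CPM with shRNAs A and B, against 581 CPM in the control library, so the control lay between the hairpins. Col5a3, a minor type V chain, did the same at 43.4 and 28.5 CPM, against 35.3 CPM.

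Col1a1 did not follow its partner Col1a2, with which it makes type I collagen. It was at 109.7 CPM with shRNA A and 59.9 CPM with shRNA B, against 119 CPM in the control library. The shRNA B library was the low one, with a log2 ratio of -0.99 (-1.11 to -0.88), and shRNA A was slightly below the control (-0.12, -0.21 to -0.03). Over both hairpins the log2 fold change was -0.49 (SE 0.27, adjusted p = 0.305), so Col1a1 did not pass the test.

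The 4 remaining fibrillar genes were rare. Col11a1, which helps start fibrils, had 60 and 33 reads with shRNAs A and B, against 12 in the control library (log2 fold change 1.76, SE 0.67, adjusted p = 0.107). Col27a1 had 36 and 15 reads, against 4, and Col24a1 had 60 and 21 reads, against 17. Col11a2 had 25 and 20 reads, against 24, and was not called. Col27a1 and Col24a1 had log2 fold changes of 2.44 (SE 1.01) and 1.04 (SE 0.68), and neither passed.

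The summed fibrillar level was 1.69 times the control level for shRNA A (1.67 to 1.71) and 0.998 times for shRNA B (0.986 to 1.01). The interval for shRNA B includes no change.

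**Figure D2:**
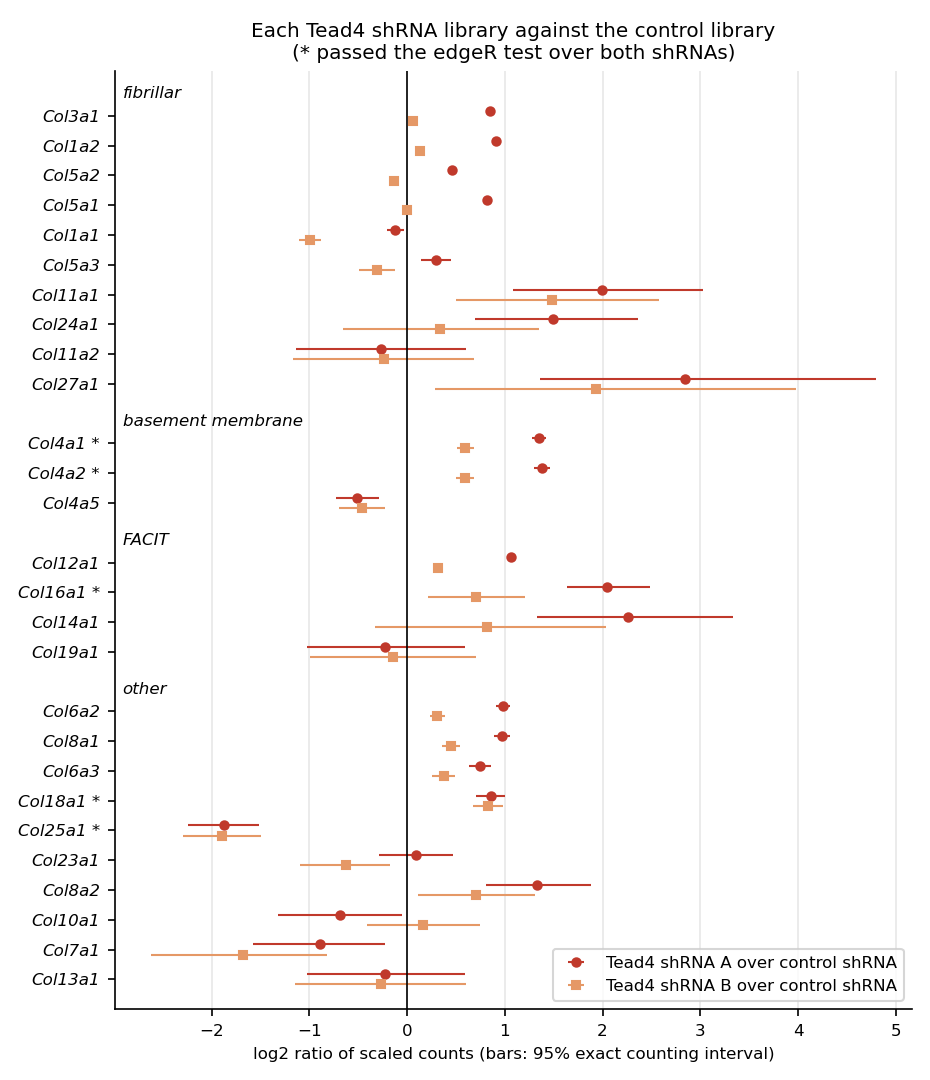
Log2 ratio of scaled counts of each Tead4 shRNA library over the control library for the 27 collagen genes with at least 50 reads, with 95% exact counting intervals. Stars mark genes that passed the edgeR test over both hairpins; most points of shRNA A lie right of those of shRNA B, while Col18a1 and Col25a1 have nearly equal ratios (0.86 and 0.83, and -1.87 and -1.89).

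Both main chains of type IV collagen rose. Col4a1 was at 308 CPM with shRNA A and 183 CPM with shRNA B, against 121 CPM in the control library. Col4a2 was at 277 and 160 CPM, against 106 CPM. Both genes were high in both Tead4 shRNA libraries and highest with shRNA A. Col4a1 had log2 ratios of 1.35 (1.28 to 1.43) and 0.60 (0.51 to 0.68), and Col4a2 of 1.38 (1.30 to 1.46) and 0.59 (0.50 to 0.68). Over both hairpins Col4a1 rose by 1.02 on the log2 scale (SE 0.28, adjusted p = 0.0215) and Col4a2 by 1.04 (SE 0.28, adjusted p = 0.0206). Over the alternatives adjusted p ran from 0.000978 to 0.04997 for Col4a1 and from 0.000705 to 0.04955 for Col4a2. The highest values, under RLE scaling, lay barely below the threshold of 0.05.

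Col4a5, whose chain belongs to a different type IV network, was on the other side. It had 15.9 and 16.5 CPM with shRNAs A and B, against 22.7 CPM in the control library. The 2 hairpins agreed within counting error and both lay under the control, with log2 ratios of -0.51 (-0.73 to -0.29) and -0.46 (-0.69 to -0.22). The log2 fold change over both was -0.48 (SE 0.25, adjusted p = 0.263) and did not pass. As a class, the 3 type IV genes summed to 2.41 times the control level for shRNA A (2.32 to 2.49) and 1.44 times for shRNA B (1.38 to 1.50).

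Of the 4 FACIT genes, Col16a1 rose (25.0%, against 5.34% of all tested genes called higher) and the others did not pass. Col16a1, whose chain associates with fibrils and with microfibrils, had 295 and 91 reads with shRNAs A and B, against 57 in the control library, or 14.7 and 5.77 CPM, against 3.55 CPM. The shRNA A library was far above the other two. Its log2 fold change was 1.53 (SE 0.45, adjusted p = 0.0331), with a ratio of 2.05 for shRNA A (1.63 to 2.48) and of 0.70 for shRNA B alone (0.21 to 1.21). This call ended under RLE scaling (adjusted p = 0.0753), upper-quartile scaling (0.0535) and DESeq2 (0.154), and adjusted p over its alternatives ran from 0.000812 to 0.154.

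Col12a1, the abundant FACIT gene, was at 991 and 588 CPM with shRNAs A and B, against 473 CPM in the control library. Both hairpins lay above the control, at log2 ratios of 1.07 (1.03 to 1.11) and 0.32 (0.27 to 0.36), and the log2 fold change over both was 0.74 (SE 0.29, adjusted p = 0.116). Col14a1 had 66 and 19 reads, against 11 (1.72 on the log2 scale, SE 0.76, adjusted p = 0.178). Col19a1 had 29 and 24 reads, against 27, and was not called. FACIT genes summed to 2.11 times the control level for shRNA A (2.06 to 2.17) and 1.25 times for shRNA B (1.21 to 1.29). These sums are mainly Col12a1. It held 19944 of 20334 FACIT reads with shRNA A, 9277 of 9411 with shRNA B and 7594 of 7689 in the control library.

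Type VI collagen forms beaded microfibrils around muscle fibres, and its chains with a row in the count table were Col6a2 and Col6a3. No row carried the symbol Col6a1, so its level is not known. Col6a2 was at 285 and 179 CPM with shRNAs A and B, against 145 CPM in the control library, and Col6a3 at 106 and 81.7 CPM, against 63.1 CPM. In both genes the 2 hairpins lay above the control, with log2 ratios of 0.98 and 0.31 for Col6a2 and of 0.74 and 0.37 for Col6a3. Neither passed the test (log2 fold changes 0.68, SE 0.27, adjusted p = 0.121, and 0.57, SE 0.23, adjusted p = 0.143).

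Type VIII collagen, a network former of vessel walls and other matrices, had the same order of libraries. Col8a1 was at 203 and 142 CPM with shRNAs A and B, against 104 CPM in the control library (log2 fold change 0.73, SE 0.25, adjusted p = 0.0708). Col8a2 had 126 and 64 reads, against 40 (log2 fold change 1.06, SE 0.45, adjusted p = 0.165). The network-forming Col10a1, a marker of hypertrophic cartilage, had 39 and 55 reads, against 50.

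Col18a1, a basement membrane collagen whose fragment is endostatin, rose, and its levels with the 2 hairpins did not differ beyond counting error. It was at 60.8 and 59.6 CPM with shRNAs A and B, against 33.6 CPM in the control library. The log2 ratios were 0.86 (0.71 to 1.01) and 0.83 (0.67 to 0.98), and the log2 fold change over both was 0.84 (SE 0.23, adjusted p = 0.0206). DESeq2 ended this call (adjusted p = 0.0568; 0.00905 to 0.0568 over its alternatives). Col15a1, of the same multiplexin family, had 9 and 7 reads, against 1, and log2 ratios of 2.84 (-0.01 to 8.30) and 2.83 (-0.13 to 8.33).

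Among the transmembrane collagens, Col25a1 fell. It had 88 and 68 reads with shRNAs A and B, against 257 in the control library, or 4.37 and 4.31 CPM, against 16.0 CPM. The Tead4 shRNA libraries coincided and lay far under the control. Its log2 ratios were -1.87 (-2.24 to -1.52) and -1.89 (-2.30 to -1.50), and over both hairpins it fell by 1.88 on the log2 scale (SE 0.32, adjusted p = 0.000407). The call held under each alternative, with adjusted p from 4.9e-07 to 0.00489.

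The other transmembrane genes were not called or not tested. Col23a1 had 139 and 66 reads with shRNAs A and B, against 104 in the control library, and Col13a1 had 29 and 22, against 27. Col17a1 had 10 and 3 reads, against 5. Col7a1, the chain of anchoring fibrils, had 33 and 15 reads, against 49 (-1.22 on the log2 scale, SE 0.59, adjusted p = 0.230). Col28a1 had 7 and 3 reads, against 7. The 13 genes outside the 3 main classes summed to 1.79 times the control level for shRNA A (1.74 to 1.85) and 1.27 times for shRNA B (1.23 to 1.32).

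By class, the median log2 ratio with shRNA A was 1.56 for FACIT genes, 1.35 for type IV, 0.83 for fibrillar and 0.67 for the other genes (0.42 for those of the others with at least 50 reads). With shRNA B the medians were 0.51, 0.59, 0.03 and 0.16 in the same order. The median log2 fold change over both hairpins, of tested genes only, was 1.14, 1.02, 0.48 and 0.18. For the other genes it covers 10 of 13, whose median log2 ratios were 0.42 with shRNA A and 0.24 with shRNA B. The classes hold 3 to 13 genes of different depth, and no test between them was made. Within the collagen reads, the fibrillar share was 70.5% for shRNA A (70.3 to 70.7) and 69.2% for shRNA B (68.8 to 69.5), against 74.5% in the control library (74.2 to 74.8). The type IV share was 7.75% and 7.70%, against 5.75%, and the FACIT share 13.0% and 12.8%, against 11.02%. The type IV and FACIT shares of the 2 Tead4 shRNA libraries had overlapping intervals, and their fibrillar shares did not.

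Set directly against shRNA A, the shRNA B library was lower for 18 of the 30 genes by the counting interval (60.0%, against 24.1% of the 15500 genes) and higher for 1, Col10a1 (3.33%, against 23.8%). By the same rule of 2-fold and interval, 3 genes were lower (10.0%, against 2.40%) and 0 were higher (against 2.32%). The 3 were Col14a1, Col16a1 and Col24a1. For the 8 genes with the most reads, the log2 ratio of shRNA B to shRNA A ran from -0.82 (Col5a1) to -0.60 (Col5a2). Other values were those of Col18a1 at -0.03 (-0.15 to 0.09) and Col4a5 at 0.05 (-0.19 to 0.29), where no difference was detectable at this depth. With 1 library per hairpin, there is no replicate check on this comparison.

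Ratios between chains within a library do not depend on how libraries are scaled. The ratio of Col1a1 to Col1a2 reads was 0.114 for shRNA A (0.109 to 0.119) and 0.107 for shRNA B (0.100 to 0.115), against 0.233 in the control library (0.221 to 0.245). The 2 Tead4 shRNA libraries overlapped, and both lay well under the control. Per exon length the ratio was 0.216 and 0.203, against 0.441, so Col1a1 was the rarer type I transcript in all 3 libraries.

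The ratio of Col4a1 to Col4a2 had overlapping intervals in all 3 libraries. There were 1.11 Col4a1 reads per Col4a2 read for shRNA A (1.07 to 1.15) and 1.14 for shRNA B (1.08 to 1.20), against 1.14 in the control library (1.06 to 1.21). Col4a5 per Col4a1 read was 0.0516 for shRNA A (0.0460 to 0.0577) and 0.0902 for shRNA B (0.0792 to 0.102), against 0.188 in the control library (0.167 to 0.210). The 3 intervals did not overlap, with the control highest. Col3a1 per Col1a2 read was 2.95 (2.90 to 2.995) and 2.94 (2.87 to 3.02), against 3.09 (3.01 to 3.17), so that shRNA A lay just under the control and shRNA B overlapped it.

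In type V collagen, the ratio of Col5a1 to Col5a2 reads was 0.892 for shRNA A (0.872 to 0.912) and 0.763 for shRNA B (0.739 to 0.789), against 0.696 in the control library (0.674 to 0.718). The minor chain Col5a3 was at 0.0611 and 0.0709 reads per Col5a1 read, against 0.0873. In type VI collagen, Col6a2 per Col6a3 read was 2.70 (2.57 to 2.84) and 2.19 (2.05 to 2.35), against 2.29 (2.13 to 2.47), so only shRNA A lay above the control. In type VIII collagen, the ratio of Col8a2 to Col8a1 overlapped in all 3 libraries, at 0.0308 and 0.0285, against 0.0240.

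**Figure D3:**
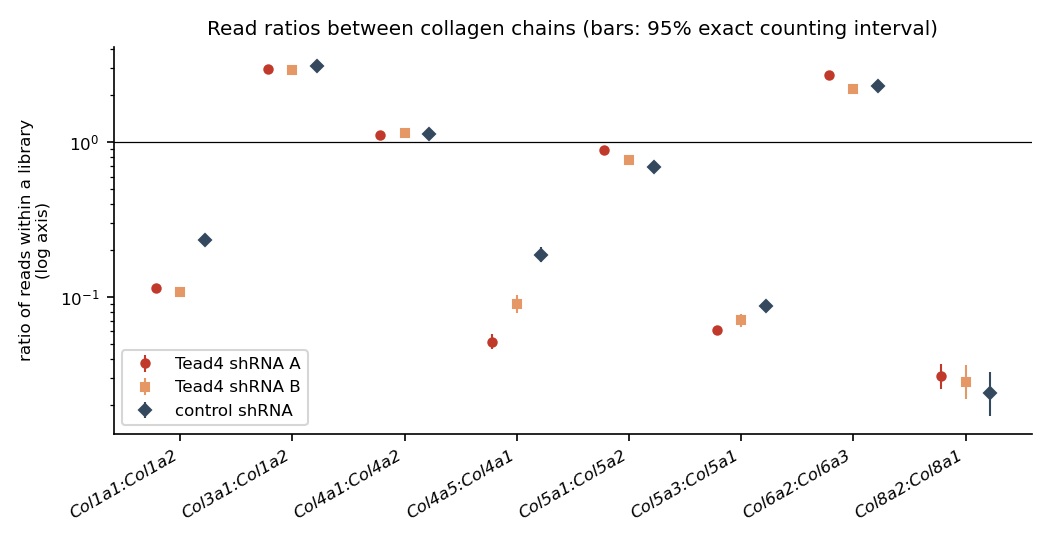
Ratio of reads between pairs of collagen chains within each library, on a log axis, with 95% exact counting intervals. Col1a1 per Col1a2 is 0.114 and 0.107 with shRNAs A and B and 0.233 in the control library, while Col4a1 per Col4a2 is 1.11, 1.14 and 1.14.

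Genes that modify, fold, trim, cross-link, bind and cleave collagen were counted from a list of 56, of which 48 were in the table and 43 were tested. The test called 5 higher and 4 lower, or 11.6% and 9.30% of the 43, against 5.34% and 4.48% of all tested genes. The counts by step that follow stand against the same shares, and each step holds few genes. The median over the list was 0.14 on the log2 scale, against 0.02 for all tested genes. In hydroxylation, the prolyl hydroxylase subunit P4ha3 rose by 1.68 on the log2 scale (SE 0.35, adjusted p = 0.00282), at 19.7 and 12.1 CPM with shRNAs A and B, against 4.98 CPM in the control library. Its paralogue P4ha2 fell by 0.67 (SE 0.21, adjusted p = 0.0483), at 58.4 and 57.0 CPM, against 91.6 CPM. The abundant P4ha1 was at 240 and 263 CPM, against 372 CPM (-0.56, SE 0.23, adjusted p = 0.143).

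Serpinh1, the collagen chaperone HSP47, fell by 0.76 (SE 0.24, adjusted p = 0.0444). It was at 632 and 628 CPM with shRNAs A and B, against 1063 CPM in the control library, so both hairpins lay at the same lower level. It was the 1 called gene of 10 tested chaperone and export genes. The calls of Serpinh1 and P4ha2 ended under RLE (adjusted p = 0.0574 and 0.0588) and upper-quartile scaling (0.0710 and 0.0747), and that of P4ha2 also with DESeq2 (0.137). Over the alternatives adjusted p ran from 0.0182 to 0.0710 for Serpinh1 and from 0.0340 to 0.137 for P4ha2. In glycosylation, Glt25d1, which adds galactose to hydroxylysine, was not called (log2 fold change 0.04, SE 0.23).

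In propeptide removal, Pcolce, which enhances cleavage of the C-terminal propeptide, rose by 0.94 (SE 0.26, adjusted p = 0.0218), at 416 and 308 CPM with shRNAs A and B, against 189 CPM in the control library. The N-propeptide protease Adamts14 fell by 0.94 (SE 0.21, adjusted p = 0.00575), at 75.3 and 73.3 CPM, against 142 CPM. Among 5 cross-linking enzymes, lysyl oxidase (Lox) rose by 1.01 (SE 0.26, adjusted p = 0.0132), at 275 and 195 CPM, against 116 CPM. The other four, Loxl1 to Loxl4, had log2 fold changes of 0.40 to 0.84 and did not pass.

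Of 6 tested receptors and uptake genes, the collagen receptor kinase Ddr2 fell by 1.09 (SE 0.23, adjusted p = 0.00308), at 41.5 and 29.7 CPM with shRNAs A and B, against 76.2 CPM in the control library. Of 3 tested cleavage genes, Mmp14 and Mmp2, a membrane protease and the gelatinase it activates, rose by 1.46 (SE 0.29, adjusted p = 0.00210) and 1.07 (SE 0.29, adjusted p = 0.0202). Mmp14 was at 1267 and 786 CPM, against 374 CPM, and Mmp2 at 1254 and 749 CPM, against 476 CPM. The remaining one, Mmp13, had 3 and 5 reads with shRNAs A and B, against 19 in the control library. Its log2 fold change was -2.35 (SE 1.03, adjusted p = 0.178), and it did not pass.

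**Figure D4:**
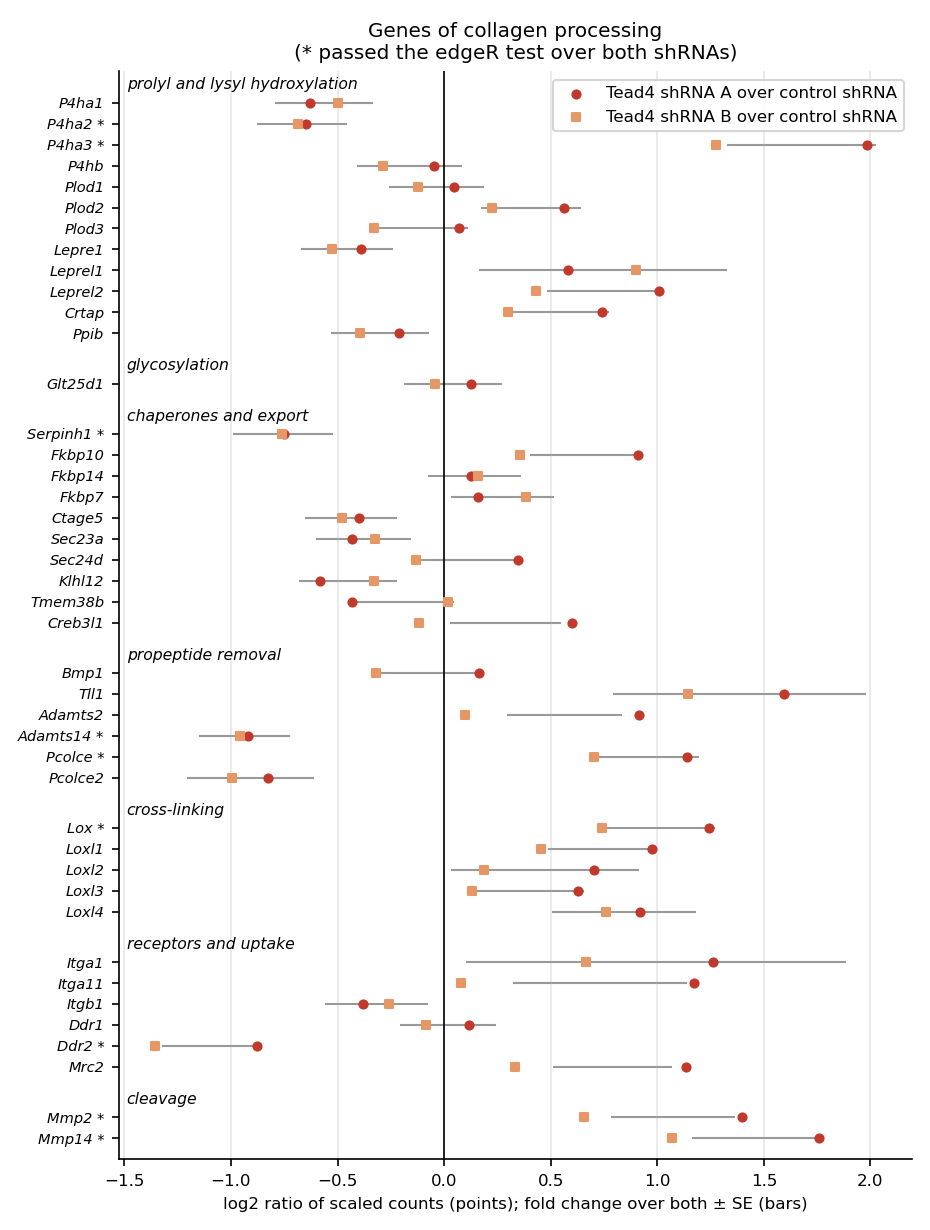
Log2 ratio of each Tead4 shRNA library over the control library (points) for 42 tested genes of collagen processing, by step, with the edgeR fold change over both hairpins ± SE (grey bars). Mmp13, at -2.35 (SE 1.03) and not called, is not drawn. The 5 genes that rose, such as Lox and Pcolce, have both points right of 0. The 4 that fell, such as Serpinh1 and Adamts14, have both left of it.

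Markers of the cell types such a culture can hold moved as well, and their part in the collagen results was not tested. The counts that follow stand against 5.34% of all tested genes called higher and 4.48% called lower. Of 8 myotube markers, 4 fell and 0 rose, with summed levels of 11024 and 13364 CPM with shRNAs A and B, against 19404 CPM in the control library; Acta1, Myh3 and Myog were present in every library. Of 5 markers of dividing cells, 5 rose (137 and 135 CPM, against 29.3 CPM). Of 5 tested smooth muscle or myofibroblast markers, 4 rose (3986 and 3096 CPM, against 1617 CPM), while the defining marker Myh11 had 5 and 0 reads, against 3. Of 5 tested fibroblast markers, 0 were called (434 and 304 CPM, against 302 CPM). Chondrocyte markers of the count table other than Sox9 were at or near 0: Hapln1 had 0 reads in all 3 libraries, Comp had 6 and 0 reads, against 2, and Matn3 had 0 and 7, against 4. Markers of satellite or reserve cells summed to 299 and 308 CPM, against 278 CPM, with 1 higher and 1 lower. Of 3 tested osteoblast markers 1 rose, Dmp1. The 5 of 7 listed that were in the count table summed to 41.1 and 34.4 CPM, against 31.7 CPM. Adipocyte, endothelial and macrophage markers, with 1, 0 and 1 tested and 0 called, each summed to under 8 CPM in every library. The marker sums leave out listed genes that had no row in the count table. Those were Thy1 for fibroblasts, Acan, Cnmd and Matn1 for chondrocytes, and Bglap and Ibsp for osteoblasts. For adipocytes they were Adipoq, Lep and Plin1, and for macrophages Emr1 and Ptprc.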

How the data were processed

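Poly(A) RNA was random-primed, not strand-marked and read single-end, per the labels' protocols. The deposited table holds raw read counts per Ensembl gene, beside normalized values that are a score: the authors multiplied each count by 1 factor per library (0.801 for shRNA A, 1.02 for shRNA B, 1.00 for control) and rounded, with 0 values off by more than rounding. The submitters' processing notes name the build mm9 and the tools Cufflinks 0.8.2, TopHat 1.0.12 and DESeq, without roles; the counting program and its treatment of multi-mapping reads are not given in the sources used here.

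Counts were tested with edgeR 4.0.16 in R 4.3.3 after filterByExpr and TMM scaling (2 Tead4 shRNA libraries against 1 control library, 1 residual degree of freedom, biological coefficient of variation 16.4%, adjusted p threshold 0.05). SE is the absolute log2 fold change over the square root of F. Library ratios carry 95% Clopper-Pearson intervals from scipy 1.17.1. RPKM divides CPM by the exon-union length in GENCODE M21, a later build than mm9, used for lengths, names and overlaps; 18701 identifiers matched, all 30 collagen genes included. On opposite strands, Col4a1 and Col4a2 share 22 exon bases, Col10a1 shares 18 with Nt5dc1, and Col5a1 shares 99 and 113 with 2810430I11Rik and Gm13372, so reads there cannot be told apart. Promoter sequences and coordinates are those of RefSeq, GRCm38.p6.

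The collagen genes, classes and gene lists were chosen with earlier results of these data known. In each class, called members and the 4 with the most reads are described in full; in each processing step, up to 3 called genes, or the most abundant one where none was called. Col1a1, P4ha1 and the Loxl genes fall outside these rules and were added after their values were seen. Alternatives were RLE and upper-quartile scaling, no filter, the newer quasi-likelihood method, DESeq2 1.42.0, the authors' factors, total counts, 50 reads as minimum and a wider basement membrane class.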

Additional observations from a re-analysis of the deposited data

How the results depend on the processing

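Without a filter on low counts, 7 collagen and 8 processing genes were called higher, against 4 and 5 in the main fit. Over all genes, 1020 were then called higher, against 773. With DESeq2, 2 collagen genes were called higher (447 and 371 of all genes higher and lower). RLE and upper-quartile scaling each left 2 processing genes lower, against 4. Over all genes these scalings left 562 and 516 lower, against 649. No other count of collagen or processing calls moved by over 1.5 times. Leaving out either Tead4 shRNA library leaves 1 against 1, a value with no test: the median log2 fold change ran from 0.16 to 0.84 for tested collagens, 0.03 to 0.83 for fibrillar, 0.59 to 1.35 for type IV, 0.51 to 1.56 for FACIT, 0.24 to 0.42 for other collagens and 0.017 to 0.17 for processing genes. Plod1 changed sign with upper-quartile scaling (0.0043; adjusted p = 0.995) and was not called. With types VII, XV and XVIII counted as basement membrane, that class's median was 0.84, against 1.02. With the authors' factors or total counts, the median library ratio of each class and of all collagens moved by less than 0.05 on the log2 scale; with 50 reads as minimum, that of the other collagens was 0.42 for shRNA A and 0.24 for shRNA B. No paired analysis was possible because the labels give the libraries no shared replicate numbers. Depth limits the rare members: for Col13a1, with 78 reads, the log2 ratio for shRNA A could lie from -1.03 to 0.59.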

Other observations

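Apart from Col4a1 and Col4a2, the collagen rows hold further gene neighbours on the chromosome. Col3a1 and Col5a2 lie tail to tail on chromosome 1, and their log2 ratios to the control library were 0.84 and 0.46 with shRNA A and 0.06 and -0.14 with shRNA B, so the neighbours differed beyond counting error in each library. Col4a6 and Col4a5 lie head to head on chromosome X, where Col4a5 had 320 and 260 reads with shRNAs A and B, against 364 in the control library, and Col4a6 had 0 and 0 reads, against 1. The head-to-head pair Col4a4 and Col4a3 on chromosome 1 held 0 and 9 reads over the 3 libraries.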
